A study of Homo sapiens with 8 samples.

Results

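The core Hippo kinase cassette was examined in HuCCT1, an established human cholangiocarcinoma (bile duct cancer) cell line, after knockdown of YAP1. The cassette was taken as 10 listed genes, and all 10 of the 19775 genes on the array with a probe set assigned to 1 gene symbol were measured. They are the MST kinases STK3 and STK4 with their adaptor SAV1, the kinases LATS1 and LATS2 with their activators MOB1A and MOB1B, and the upstream activators NF2, WWC1 and FRMD6. Together they had 45 probe sets. For each gene the brightest of its probe sets, by mean over the 8 arrays, was used unless stated otherwise. The rule names the genes by their role and sets no cut-off on a measured value, but the cassette was picked with earlier results of these data known.

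The Hippo pathway is a chain of kinases that restrains growth. MST1 and MST2, encoded by STK4 and STK3, bind the scaffold SAV1 and phosphorylate LATS1 and LATS2 and the MOB1 adaptors. The active LATS kinases phosphorylate the coactivators YAP and TAZ, which are then held in the cytoplasm or degraded and cannot drive transcription with TEAD factors. NF2 (merlin), WWC1 (KIBRA) and FRMD6 (the relative of the fly Expanded protein) act at the cell cortex and promote activation of the kinases. LATS2 and NF2 have been described as transcriptional targets of YAP, which makes part of the cassette a negative feedback loop, and YAP activity is known to be high in many bile duct cancers.

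In 4 samples the HuCCT1 cells carried the vector labelled YAP shRNA 1, and in 4 samples they carried control shRNA, described as a scrambled sequence. Expression of either shRNA was induced with doxycycline at 100 ng/ml from 3 days before seeding, so both groups had the drug. Every sample came from the 1 cell line, and the labels name 1 vector against YAP, so an effect of that hairpin on other transcripts cannot be told apart from the loss of YAP1. The series title speaks of YAP overexpression, whereas its design text and the sample labels describe knockdown. No label states whether the replicates of a group were grown apart, so the spread behind each p-value may be technical. The arrays measured bulk RNA, in which fewer cells of a type and less RNA per cell cannot be told apart.

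YAP1 stood at 10.40 to 10.55 on the YAP shRNA arrays, against 12.59 to 12.77 on the control shRNA arrays (log2 expression value, the deposited scale). This is a log2 fold change (YAP shRNA over control shRNA) of -2.14, with standard error 0.056 and limma adjusted p = 6.15e-07. Biliary and epithelial markers were bright, with array means between 12.60 and 14.18 for the 7 of 8 that were measured, KRT7, KRT19, KRT8, KRT18, EPCAM, SOX9 and CDH1, of which CDH1 and KRT19 rose by 0.33 and 0.15. The endothelial genes PECAM1, CDH5, VWF and KDR lay between 3.67 and 6.10, where the lowest gene on the array averaged 1.92 and the median gene 7.44. Of 4 leukocyte markers, LYZ and CD14 rose by 0.86 and 0.46 and the pan-leukocyte gene PTPRC fell by 0.22, and their summed linear signal was 232 to 296 on YAP shRNA arrays and 154 to 185 on control shRNA arrays. Of 6 hepatocyte markers SERPINA1 rose by 0.19, and their summed signal was 7798 to 8082 on YAP shRNA arrays and 6817 to 7201 on control shRNA arrays. Of 6 fibroblast markers COL1A1 rose by 0.52, and the sums were 560 to 604 on YAP shRNA arrays and 451 to 504 on control shRNA arrays. The T cell gene CD3E averaged 3.08 in YAP shRNA and 3.16 in control shRNA cells, ALB 4.16 in YAP shRNA and 4.32 in control shRNA cells, and COL3A1 4.82 in YAP shRNA and 4.68 in control shRNA cells. Each linear sum is weighted to the brightest genes of its list, with SERPINA1 at an array mean of 12.82, COL1A1 at 8.21 and LYZ at 6.76. The other 5 hepatocyte and 5 fibroblast markers moved in both directions and were not called. The part of these markers in the results below was not tested. Control shRNA replicate 4 had a mean correlation of 0.9967 with its group across genes, against 0.9978 to 0.9980 for the other control arrays.

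Knockdown of YAP1 was accompanied by lower transcript levels of 5 of the 10 cassette genes. LATS2, MOB1B, NF2, WWC1 and FRMD6 fell, each by less than 1.5-fold on its brightest probe set, and no member rose. LATS1, STK3, STK4, SAV1 and MOB1A did not pass the test. Over all genes, 16.7% changed at a limma adjusted p below 0.05, with 7.17% lower and 9.49% higher in YAP shRNA cells. Among the 6184 genes at least as bright as the dimmest member, 11.3% fell and 12.5% rose. At an unadjusted p below 0.05, 5 members were lower and 1, SAV1, was higher. Of all 19775 genes, 2518 were lower and 3267 higher at that threshold. The median log2 fold change was -0.14 over the 10 members and 0.01 over all genes. The YAP shRNA arrays lay wholly below the control shRNA arrays for 6 members and wholly above them for 0, where 10.9% of all genes lay wholly below and 13.4% wholly above. Without control shRNA replicate 4, 5 members fell and 0 rose. The median log2 fold change of all genes on the chromosomes that carry the members lay between -0.03 (chromosome 13, with LATS2) and 0.07 (chromosome 8, with STK3).

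**Figure D1:**
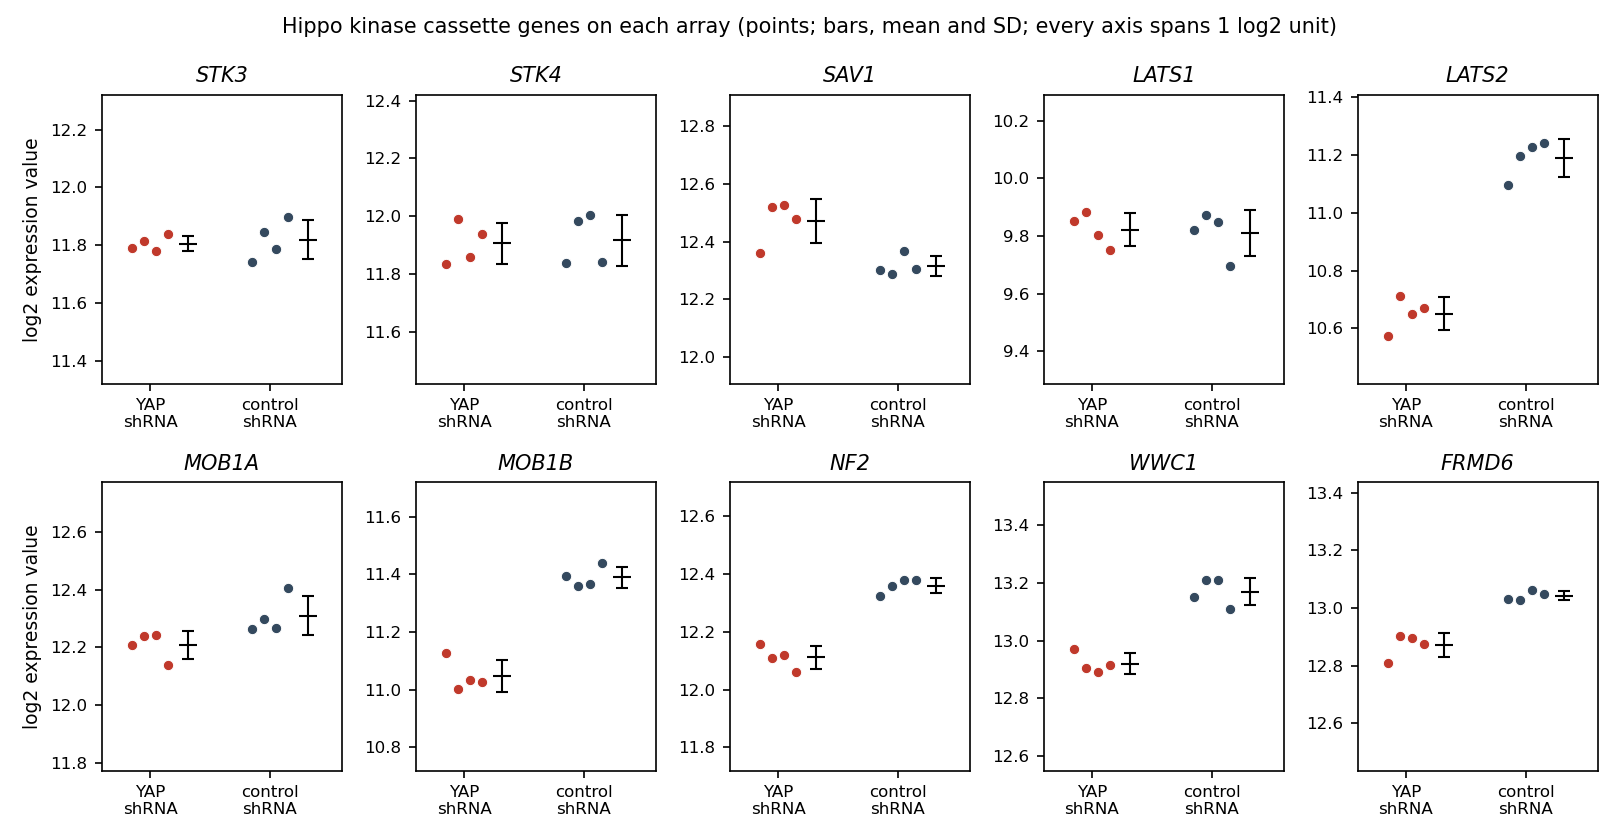
Log2 expression values of the 10 cassette genes on each array, with YAP shRNA on the left and control shRNA on the right of each panel. Points are arrays, bars are the mean and SD of 4 arrays, and each vertical axis spans 1 log2 unit with its own range. The groups stand apart for LATS2, MOB1A, MOB1B, NF2, WWC1 and FRMD6 and overlap for STK3, STK4, SAV1 and LATS1.

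LATS2, 1 of the paired kinases that phosphorylate YAP, showed the largest change of the cassette on the brightest probe sets, while with the probe sets of each gene averaged it and NF2 stood close together at -0.47 and -0.46 on the log2 scale. Its values on the 4 YAP shRNA arrays were 10.57, 10.71, 10.65 and 10.67, against 11.10, 11.20, 11.23 and 11.24 on the 4 control shRNA arrays. Every YAP shRNA array lay below every control array, and the gap between the groups was wider than the range within either. The means were 10.65 ± 0.058 in YAP shRNA cells and 11.19 ± 0.066 in control shRNA cells (SD, n = 4 each), a 1.45-fold lower level in YAP shRNA cells. On the log2 scale the change was -0.54 (standard error 0.049, 95% interval -0.65 to -0.43, limma adjusted p = 0.000203). Of the 19775 genes, 279 had a lower log2 fold change than LATS2.

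LATS1, the paralog kinase, did not pass the test. It stood at 9.85, 9.88, 9.80 and 9.75 on YAP shRNA arrays, against 9.82, 9.87, 9.85 and 9.69 on control shRNA arrays, so the groups overlapped almost fully. Its change was 0.01 with a 95% interval of -0.11 to 0.13 (limma adjusted p = 0.905), and the lower end of that interval lies well above the change of LATS2.

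The start regions of LATS2 and LATS1 were picked because the pair behaved differently. Whether a motif match bears on that difference was not tested, and sequence outside the windows was not searched. Sequences are from RefSeq on GRCh38.p14. Capitals mark matches to the TEAD core motif GGAATG or to a loose AP-1 motif, TGANTCA, in which N is any base. Both strands were searched, in windows from 250 bases before to 50 bases after the transcript starts that the RefSeq table lists. These are not all the starts of a gene. LATS2 had 1 TEAD match, in the stretch chr13:21061567-21061686 on the minus strand, beginning at base 10 counted from 1 at the start. LATS1 had no TEAD match in either of its 2 windows. It had 1 match to the loose AP-1 motif, with A as the middle base, 245 bases before the start. That match lies in the stretch chr6:149718252-149718351 on the minus strand. The stretch of CCN2, a textbook YAP and TEAD target, at chr6:131951453-131951552 on the minus strand, held 3 TEAD matches.
LATS2: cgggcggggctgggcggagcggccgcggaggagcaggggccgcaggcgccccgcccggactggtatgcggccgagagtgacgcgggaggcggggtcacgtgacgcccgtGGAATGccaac
LATS1: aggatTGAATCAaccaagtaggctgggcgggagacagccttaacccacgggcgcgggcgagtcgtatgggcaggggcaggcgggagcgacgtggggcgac
CCN2: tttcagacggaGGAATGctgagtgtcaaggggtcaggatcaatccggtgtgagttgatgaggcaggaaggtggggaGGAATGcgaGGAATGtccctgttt

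The TEAD motif was present in 14% of the 35116 windows in the RefSeq table and in at least 1 window of 16.7% of the 27305 symbols. The loose AP-1 motif was present in 7.71% of windows and 9.37% of symbols. Windows were given for 9 of the 10 members, 12 windows in all, and the TEAD motif was found in 1 of these genes, LATS2, while the AP-1 motif was found in LATS1 and MOB1B. The MOB1B match begins 44 bases before a start that lies 518 bases inside the annotated gene. Among the 5 genes used as readouts of YAP activity, 4 had windows, 6 in all, and 4 of the windows held a TEAD match, 1 each for CCN2, ANKRD1, AMOTL2 and AJUBA. For AMOTL2 and AJUBA the match was in the window of an inner start, and the window at the outermost start held none. A match is a run of letters in a short window and not a bound site. The windows of NF2, WWC1 and FRMD6, which also fell, held neither motif, and the only one for FRMD6 lies at a start 92.7 kb inside its annotated gene, so its outermost start was not searched.

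MOB1B fell and its close paralog MOB1A did not pass the test. Both encode MOB1, the adaptor that binds LATS kinases and aids their activation. MOB1B stood at 11.13, 11.00, 11.03 and 11.03 on YAP shRNA arrays, against 11.39, 11.36, 11.37 and 11.44 on control shRNA arrays. The groups did not overlap. MOB1B was 1.27-fold lower in YAP shRNA cells (log2 fold change -0.34, standard error 0.042, limma adjusted p = 0.000881), which came after LATS2 on the brightest probe sets, whereas NF2 fell further than MOB1B with probe sets averaged (log2 fold change -0.46). MOB1A stood at 12.21, 12.24, 12.24 and 12.14 on YAP shRNA arrays, against 12.26, 12.30, 12.27 and 12.41 on control shRNA arrays, again with no overlap but by a narrow gap. Its log2 fold change was -0.10 with a 95% interval of -0.21 to 0.01 (limma adjusted p = 0.196). When the 4 probe sets of MOB1A were averaged, the log2 fold change was -0.19 (limma adjusted p = 0.0471), so its call depended on the probe set. The 2 genes encode near-identical proteins, and cross-hybridisation between them was not tested.

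The MST kinases did not pass the test. STK3, which encodes MST2, stood at 11.79, 11.81, 11.78 and 11.84 on YAP shRNA arrays, against 11.74, 11.85, 11.79 and 11.90 on control shRNA arrays. STK4, which encodes MST1, stood at 11.84, 11.99, 11.86 and 11.94 on YAP shRNA arrays, against 11.84, 11.98, 12.00 and 11.84 on control shRNA arrays. Both pairs of groups overlapped across most of their range. Both log2 fold changes were -0.01, with 95% intervals of -0.11 to 0.09 for STK3 and -0.14 to 0.12 for STK4 (limma adjusted p = 0.889 and 0.930).

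SAV1, the scaffold that links MST to LATS, was the only member with a positive log2 fold change above 0.1, and it lay at the edge of the threshold. It stood at 12.36, 12.52, 12.53 and 12.48 on YAP shRNA arrays, against 12.30, 12.29, 12.37 and 12.30 on control shRNA arrays. YAP shRNA replicate 1 lay within the control range and the other 3 lay above it. Its log2 fold change of 0.16 had a standard error of 0.048 (limma adjusted p = 0.0577). It was called without YAP shRNA replicate 1, at 0.19 (limma adjusted p = 0.0230), and under quantile normalization, with either limit on dim genes, with a trend in the spread or with array weights, with adjusted p between 0.00617 and 0.0423. It was not called with its 5 probe sets averaged, at 0.06 (limma adjusted p = 0.337), with median centring or the replicate block (limma adjusted p = 0.0807 and 0.120), or without any other single array.

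All 3 upstream activators fell. NF2, the tumour suppressor that brings LATS to the membrane, stood at 12.16, 12.11, 12.12 and 12.06 on YAP shRNA arrays, against 12.32, 12.36, 12.38 and 12.38 on control shRNA arrays. NF2 changed by -0.25 on the log2 scale (standard error 0.037, limma adjusted p = 0.00239). WWC1, a scaffold that binds NF2 and LATS, stood at 12.97, 12.91, 12.89 and 12.91 on YAP shRNA arrays, against 13.15, 13.21, 13.21 and 13.11 on control shRNA arrays. WWC1 also changed by -0.25 (standard error 0.040, limma adjusted p = 0.00347). In both genes the groups were separate and each YAP shRNA array was lower than the lowest control array by more than 0.1.

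FRMD6, a FERM-domain protein of the same cortical group, had the smallest fall that passed. It stood at 12.81, 12.90, 12.89 and 12.87 on YAP shRNA arrays, against 13.03, 13.03, 13.06 and 13.05 on control shRNA arrays. That is a 1.13-fold lower level (log2 fold change -0.17, standard error 0.037, limma adjusted p = 0.0136), and the call was lost with the replicate number as a block (limma adjusted p = 0.0724). The control arrays were tightly grouped (SD 0.016) and all of them lay above the YAP shRNA arrays. The call on WWC1 was lost once probe sets with the suffixes _s_at and _x_at, which can match several transcripts, were left out, where its brightest remaining probe set gave -0.12 (limma adjusted p = 0.341).

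The several probe sets of a gene differed in how far they moved. Tested with all 41097 probe sets that carry 1 symbol, 21 of the 45 cassette probe sets fell and 0 rose (limma adjusted p below 0.05), where 6.62% of all such probe sets fell and 6.95% rose. At an unadjusted p below 0.05 the counts were 24 lower and 3 higher, the 3 being probe sets of SAV1. The share of all probe sets at that threshold was not taken. All 8 probe sets of NF2 fell. The brightest of them, which stood for the gene above, had the smallest change at -0.25, and the other 7 lay between -0.61 and -0.37. The fall of NF2 was therefore between 1.19-fold and 1.53-fold depending on the probe set.

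LATS2 fell on all 4 of its probe sets, by 0.54, 0.51 and 0.61 on 3 of them and by 0.22 on the dimmest. Both FRMD6 probe sets fell, by 0.17 and 0.19. WWC1 had 8 probe sets, all with log2 fold changes below 0, and 3 of them fell. MOB1A had 4, all below 0, and 2 of them fell, by 0.19 and 0.27. MOB1B had only 1.

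The remaining genes gave a mixed picture by probe set. STK4 had 7 probe sets, of which 1 fell by 0.26 and the others lay between -0.16 and 0.19 without passing. The 2 probe sets of STK3 stood at -0.01 and 0.01, and the 4 of LATS1 between 0.01 and 0.14. Of the 5 SAV1 probe sets, 3 stood between 0.14 and 0.16 and the 2 with the suffix _x_at stood at -0.09 and -0.05. None of those of STK3, LATS1 or SAV1 passed the test.

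**Figure D2:**
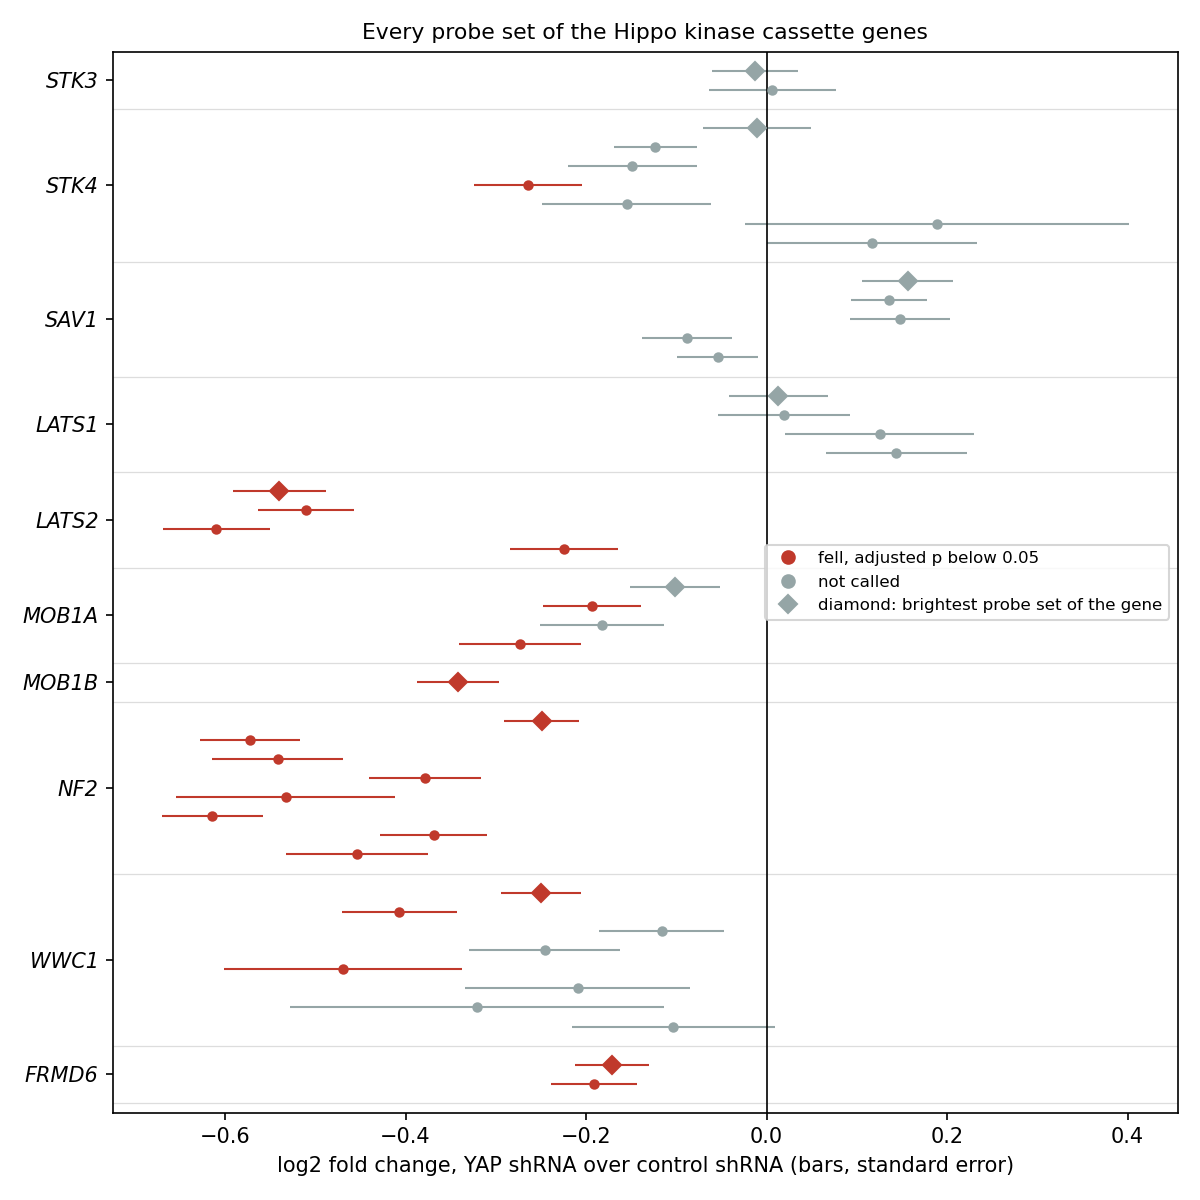
Log2 fold change of each of the 45 probe sets, YAP shRNA over control shRNA, with the standard error as a bar. Within a gene the brightest probe set is the diamond at the top. Red points fell at a limma adjusted p below 0.05 over all 41097 probe sets. All probe sets of NF2, LATS2, FRMD6 and MOB1B are red, and those of STK3, LATS1 and SAV1 are grey.

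Whether paralogs changed unequally was tested on the log2 difference between them within each array. For LATS2 minus LATS1 this difference was 0.72, 0.83, 0.85 and 0.92 on YAP shRNA arrays, against 1.28, 1.32, 1.38 and 1.55 on control shRNA arrays. The groups did not overlap, and the difference was lower by 0.55 in YAP shRNA cells (YAP shRNA minus control shRNA, -0.55; two-sided exact permutation p = 0.0286, adjusted p = 0.0429 over the 3 pairs). For MOB1B minus MOB1A it was -1.08, -1.24, -1.21 and -1.11 on YAP shRNA arrays, against -0.87, -0.94, -0.90 and -0.97 on control shRNA arrays, a shift of -0.24 with no overlap (two-sided exact permutation p = 0.0286, adjusted p = 0.0429). The value 0.0286 is the smallest p that 4 arrays against 4 allow. For STK3 minus STK4 the shift was -0.002, with overlapping groups (two-sided exact permutation p = 0.971). LATS2 and MOB1B thus changed more than their paralogs on the brightest probe sets. With the probe sets of each gene averaged, the shifts were -0.55 and -0.15 and neither passed after adjustment (exact permutation, adjusted p = 0.0857 for both). Over 3 pairs, a pair at the smallest p cannot pass this adjustment unless another pair also reaches it. The loss of the LATS2 call therefore does not show a weaker shift. The absolute size of such a difference compares separate probe sets and carries no meaning of its own.

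**Figure D3:**
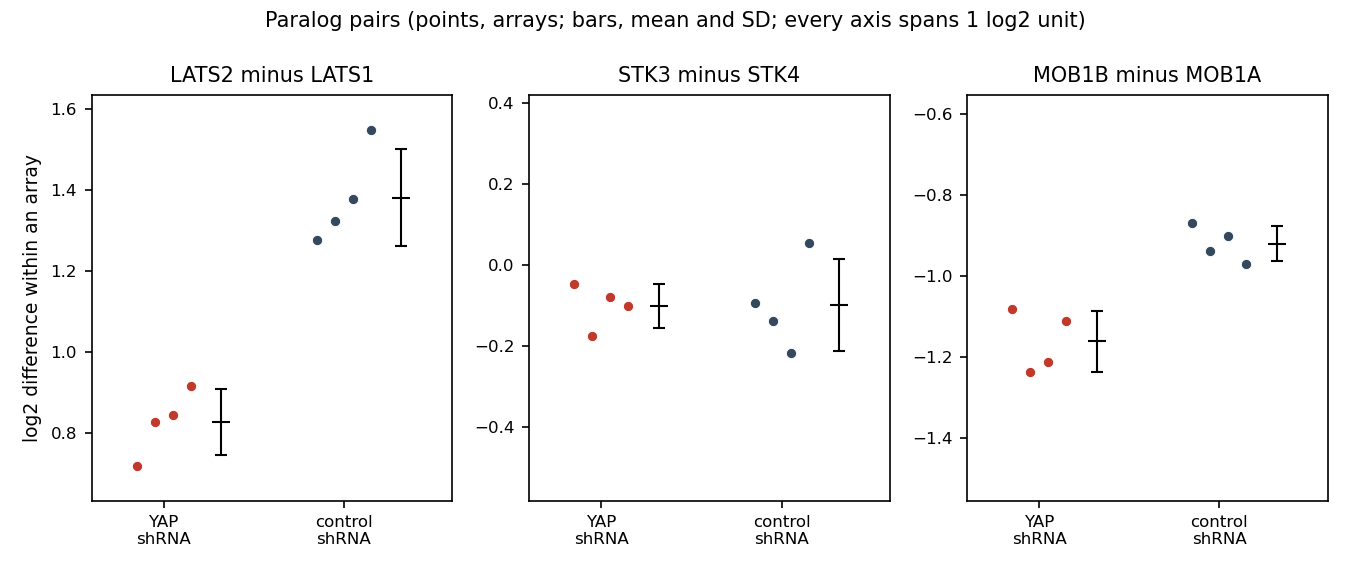
Log2 difference between the paralogs of each pair within an array, YAP shRNA on the left and control shRNA on the right. Points are arrays, bars are the mean and SD of 4 arrays, and every axis spans 1 log2 unit. The groups separate for LATS2 minus LATS1 and for MOB1B minus MOB1A and overlap for STK3 minus STK4.

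The falls in the cassette were smaller than those of CCN2, CCN1 and AJUBA, and that of LATS2 was close to that of AMOTL2. CCN2 and CCN1, secreted matricellular proteins, fell by 1.27 and 1.00, and AJUBA and AMOTL2, which bind LATS, fell by 1.10 and 0.46. AMOTL2 stood at 11.32 to 11.40 on YAP shRNA arrays against 11.73 to 11.93 on control shRNA arrays. For ANKRD1, a cardiac and muscle-linked repeat protein gene often used as a YAP readout, the groups overlapped and the value of -0.44 did not pass (limma adjusted p = 0.0848). LATS2, NF2 and other genes of the cassette share the 8 arrays with these readouts, and the difference in size between genes was not tested.

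Beyond the cassette, 77 of 83 other listed Hippo genes were measured, and 10 rose and 11 fell, with a median of -0.01, where 9.49% of all genes rose and 7.17% fell. The 11 include YAP1, the target of the shRNA, and the readouts AJUBA and AMOTL2, and without these 3 genes 10 of 74 rose and 8 fell, with a median of 0.00. None of the 4 genes of YAP degradation and none of the 3 other MST family kinases passed limma. At an unadjusted p below 0.05 the degradation genes had 1 higher and 1 lower and the MST relatives had 1 higher. Of all 19775 genes, 3267 were higher and 2518 lower at that threshold. Among kinases that can stand in for MST, 2 of 8 rose, MINK1 by 0.29 and MAP4K4 by 0.16. The MOB3 genes, whose products are relatives of MOB1 that act outside the LATS step, moved in both directions, with MOB3A and MOB3C higher by 0.23 and 0.21 and MOB3B lower (fell by 0.70). The NDR kinase genes STK38 and STK38L, the nearest relatives of LATS, stood at -0.07 and 0.07 and did not pass.

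The phosphatase complex that opposes MST, STRIPAK, had 3 of 12 genes lower and 0 higher, or 4 and 1 at an unadjusted p below 0.05. Over all 19775 genes the unadjusted counts were 2518 lower and 3267 higher, and at the adjusted threshold 7.17% fell and 9.49% rose. Its scaffolds STRN3 and STRN fell by 0.45 and 0.23 and FGFR1OP2 by 0.21. Of the RASSF genes, which encode MST-binding proteins, RASSF4 rose by 0.52 and RASSF1 fell by 0.28, with 4 others not called. Among relatives of KIBRA and of the FERM proteins, FRMD4B and FRMD4A rose by 0.54 and 0.43 and EZR (ezrin) fell by 0.12, while WWC2, at 0.25, and WWC3, at 0.01, did not pass (limma adjusted p = 0.0627 and 0.961).

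Junction and polarity inputs were mostly not called, with 1 of 16, the large cadherin FAT4, lower by 0.60 (log2 fold change -0.60) and 0 higher. At an unadjusted p below 0.05 these inputs had 2 lower and 2 higher, against 2518 lower and 3267 higher of all 19775 genes. At the adjusted threshold 7.17% of all genes fell and 9.49% rose. Of 6 angiomotins and LIM proteins that bind LATS, AMOTL1 rose by 0.34, and the 2 that fell were AJUBA and AMOTL2. In the YAP and TEAD module, WWTR1, which encodes TAZ, and VGLL4, a TEAD-binding repressor, both rose by 0.20, and TEAD4 fell by 0.13. TEAD1, TEAD2 and TEAD3, at -0.15, 0.05 and 0.02, did not pass (limma adjusted p = 0.0694, 0.702 and 0.865). The TEAD1 groups did not overlap.

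**Figure D4:**
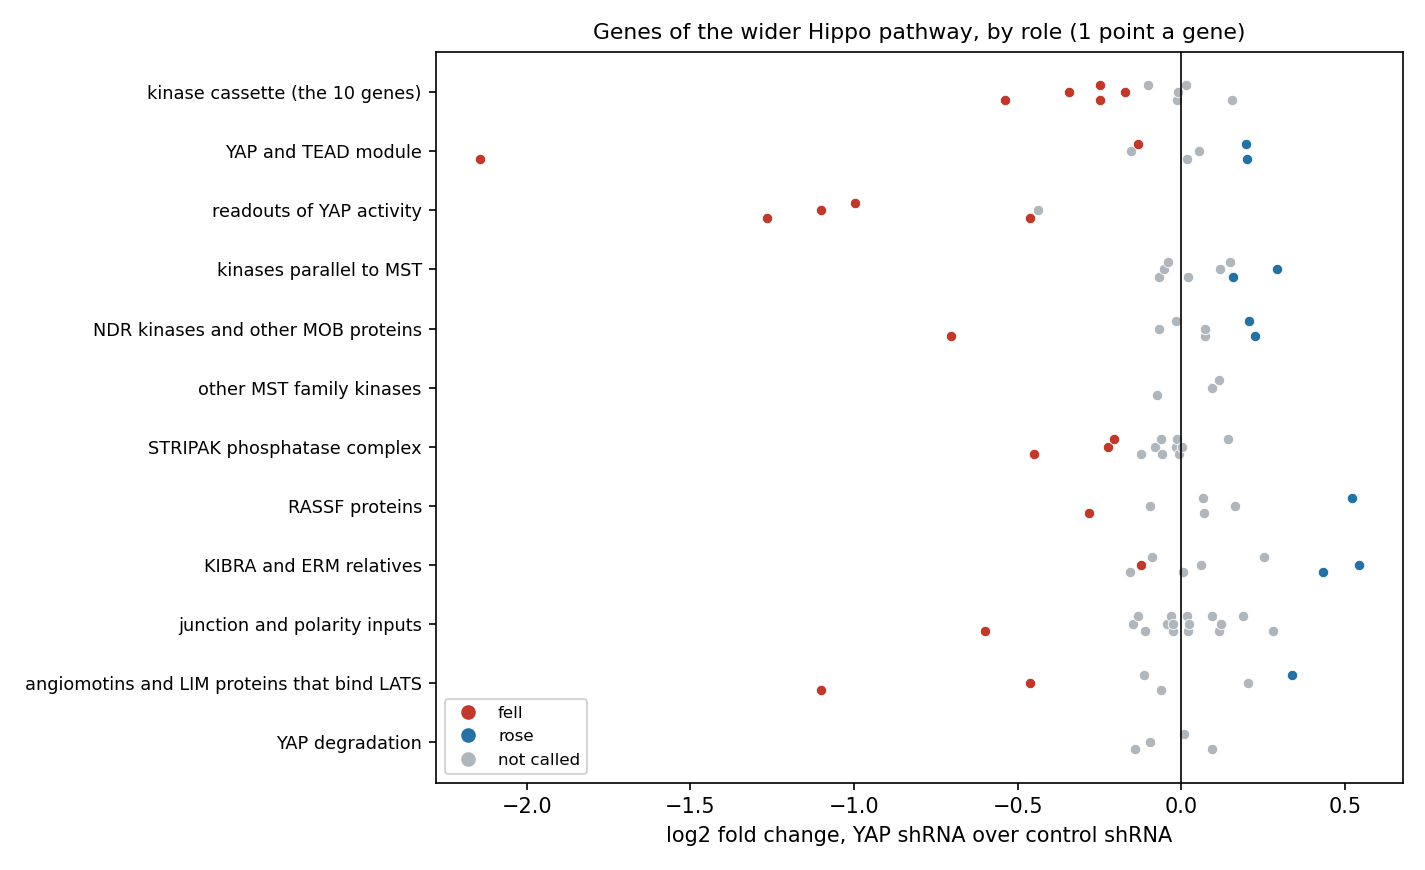
Log2 fold change, YAP shRNA over control shRNA, of each measured gene of the cassette and of the other Hippo pathway lists, 1 point a gene, with red for genes that fell, blue for genes that rose and grey for genes not called at a limma adjusted p below 0.05. AJUBA and AMOTL2 appear in 2 lists. The cassette has 5 red points and 0 blue ones, and the leftmost point is YAP1 at -2.14.

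Of all genes, SNAPC1, MYEF2, RAB12, CDK6 and ZCCHC4 had profiles nearest to that of LATS2 over the 8 arrays. Likeness was the root mean square difference between log2 values centred on each gene's mean, and it was 0.022 for SNAPC1, 0.043 for MYEF2, 0.049 for RAB12, 0.051 for CDK6 and 0.055 for ZCCHC4. SNAPC1, a subunit of the complex that activates small nuclear RNA genes, fell by 0.57, and CDK6, a kinase of the cell cycle, fell by 0.48. Because the arrays form 2 groups, this likeness is mostly set by the size of the difference between the groups.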

How the data were processed

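HuCCT1 RNA was measured on 8 one-colour arrays, 4 of each shRNA. The deposited values are 1 log2 value per probe set and array, with the log base inferred from their range and the authors' background correction, summarisation and normalization not given in the sources used here. RNA handling, per the labels' protocols, was by RNeasy extraction, NuGEN Ovation amplification and biotin labelling. Array medians lay between 6.22 and 6.25, and no further normalization was applied. Values carry no detection call, and the number of arrays limits the precision.

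GEO's platform annotation gave a single symbol to 41097 of 54675 probe sets, while 1801 had several and 11777 had no symbol. Of the first, 41043 matched by Entrez ID RefSeq's GRCh38.p14 gene table. No probe set named a member beside another gene. Limma 3.58.1 in R 4.3.3 was fitted over all 19775 genes with no block and no filter, YAP shRNA minus control shRNA, with Benjamini-Hochberg adjustment over all genes and a threshold of 0.05. The fit was tested on simulated data. The named genes are the members, YAP1, the TAZ and TEAD genes, 5 readouts, up to 2 risen and 2 fallen genes of each list and the 5 profiles nearest to the member with the largest change. FGFR1OP2, the NDR kinases, WWC2, WWC3 and uncalled markers were named after their values were seen. The members and lists were chosen with earlier results of these data known. Alternatives were other normalizations, limits on dim genes, probe set rules, spread models, a replicate block, other thresholds and omission of each array. Those for single probe sets and for YAP1 were added after the data were seen. Figures used matplotlib 3.10.9.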

Additional observations from a re-analysis of the deposited data

Results flagged for a closer look

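In 102 groups of 4 values, from 48 named genes and 3 paralog differences, 1 array lay far from the rest in 5, and chance alone would flag about 5.1. None was a cassette gene or a paralog difference. YAP1 was high in control shRNA replicate 3 at 12.77 (12.59 to 12.61 in the other control arrays). In control shRNA replicate 4, CCN1 was low at 12.43 (12.52 in the others) and VGLL4 high at 12.29 (12.25 in the others). SNAPC1 was low in control shRNA replicate 1 at 11.09 (11.19 to 11.20), and MYEF2 was high in YAP shRNA replicate 2 at 10.14 (10.01 to 10.02).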

How the results depend on the processing

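LATS2, MOB1B and NF2 stayed lower and below the threshold under all 10 other settings and with each of the 8 arrays left out, at log2 fold changes of -0.57 to -0.47, -0.37 to -0.33 and -0.46 to -0.23. YAP1 did so too, at -2.20 to -2.10. LATS1, STK3 and STK4 passed under none of these. WWC1 lost its call without _s_at and _x_at probe sets (-0.12), and 7 wider Hippo genes then fell, where 1091 of all genes tested fell. MOB1A gained a call with averaged probe sets (-0.19), where the LATS2 and MOB1B paralog differences of -0.55 and -0.15 did not pass after adjustment. Without _s_at and _x_at probe sets the LATS2 difference kept its value of -0.55, since the brightest probe sets of LATS2 and LATS1 carry neither suffix. Its exact permutation adjusted p became 0.0571 only because the MOB1 pair had no value and 2 pairs remained. SAV1 passed with quantile normalization (0.16), without genes below the lower quartile or the median level (0.16), with a trend, with a robust trend (0.16) and with array weights (0.16), and in these and at a threshold of 0.10 the number of risen members was 1. Of the cassette probe sets, 1 rose with quantile normalization and 3 with either trend. With a trend 4257 genes were called and with a robust trend 4303, against 3294 in the main fit. The share of all probe sets called under other settings or with an array left out was not taken. Without genes below the median level, 16 wider Hippo genes rose. In that setting 2168 of the genes kept rose, against 1876 of all genes in the main fit.

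The labels do not say whether same-numbered arrays were paired. Their deviations correlated at -0.21 to 0.00, which cannot decide it, since paired arrays with little in common would look the same. With the replicate block, 2106 genes were called, 1222 higher and 884 lower, FRMD6 stood at -0.17 without passing (limma adjusted p = 0.0724), 4 members fell, 13 cassette probe sets fell and 6 wider Hippo genes fell. At a threshold of 0.01, 1785 genes were called, 1022 higher and 763 lower, with 6 wider Hippo genes lower. With each array left out, 2381 to 3881 genes were called, 1362 to 2249 higher and 1019 to 1632 lower. Members that fell numbered 5 each time and those that rose 0 to 1, SAV1 ranging from 0.14 to 0.19. Cassette probe sets that fell then numbered 14 to 21 and those that rose 0 to 1. Wider Hippo genes then numbered 9 to 12 higher and 8 to 14 lower. The cause of these shifts was not tested.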
